A study of Mus musculus with 9 samples.

Results

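The collagen chain genes of the mouse, which encode the subunits of the collagen triple helices, were examined in epidermal sheets of the ear. A gene was taken when its symbol in the deposited count table had the form of a collagen chain (Col, a type number, the letter a and a chain number), and Col17a1, a transmembrane collagen of the hemidesmosome, was left out, which gave 43 of the 52550 genes in the table. They were sorted into 7 fibrillar chains, 8 cartilage chains, 9 chains of the basement membrane zone and 19 other chains. Wild-type C57BL/6 mice aged 8 weeks, male and of the substrain C57BL/6J by the study's methods, formed 3 groups of 3 libraries. By the labels, every mouse was gavaged once daily for 10 days and had its ears treated for the last 5 of them. The legend of the study's ear experiment gives a more frequent gavage than the labels and the methods, so the total daily dose is uncertain. The control group (VAS+H2O) had Vaseline and water, the model group (IMQ+H2O) had cream with imiquimod, a Toll-like receptor 7 agonist that raises psoriasis-like dermatitis in mice, and water, and the XYF group (IMQ+XYF) had imiquimod and the herbal decoction Xiao-Yin-Fang at 23.3 mg/g. The sheets were lifted from the dermis with dispase, an enzyme that cleaves the dermal-epidermal junction.

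A collagen is a trimer of chains that share a repeating glycine-rich helix, and each type builds its own structure. Types I, III and V form the banded fibrils of the dermis, types II, IX, XI and XXVII belong to cartilage, such as the plate inside the ear, and type IV forms the sheet of the basement membrane under the epidermis. Type VII forms the anchoring fibrils that tie this membrane to the dermis, and types VI and VIII build beaded filaments and short-chain networks. Fibroblasts and chondrocytes make most fibrillar and cartilage collagen, and keratinocytes take part in making types IV and VII.

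Collagen transcripts were lower in inflamed than in control sheets, and after XYF the tested cartilage, type VI and type VIII chains had mean levels between those of the model and the control, while most chains of the basement membrane zone had values near the model. For the fibrillar chains the order of IMQ+XYF and the control rested on replicate 2 of VAS+H2O, since their summed mean was 95.5 CPM in IMQ+XYF against 186 CPM in all controls and 79.4 CPM without that library. Summed over the 43 genes, the level was 1101, 2159 and 1206 CPM in VAS+H2O, 565, 595 and 511 CPM in IMQ+H2O and 937, 799 and 802 CPM in IMQ+XYF, in CPM (gene counts relative to the library total after TMM scaling), in the order of replicates 1 to 3. The groups did not overlap in this sum. Replicate 2 of VAS+H2O stood apart, with the highest sum of all.

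In the model against the control, 34 collagens had enough counts to be tested, and 23 were differentially expressed genes (DEGs), which had to reach an edgeR adjusted p of 0.05 or less with a log2 fold change of 1 or more in either direction. Of these, 22 fell and 1, Col23a1, rose, against 4.04% of the 18009 genes tested that fell and 3.64% that rose. The IMQ+H2O libraries lay below every VAS+H2O library in 26 of the 34 collagens, and 21.6% of all genes tested did so. The median log2 fold change of the tested collagens was -2.07, beside -0.029 for all genes tested. DESeq2 called 24 collagens, beside 8.66% of the genes it tested. The edgeR count changed when a library was left out, which also leaves fewer libraries to test with, and the cause of the change was not tested. It was 19 without replicate 2 of VAS+H2O, where the median became -1.37. Without replicates 1 and 3 of IMQ+H2O it was 15 and 13, with medians of -2.12 and -2.07.

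In IMQ+XYF against IMQ+H2O, 3 of 33 tested collagens rose and 0 fell, while 0.0281% of the 17793 genes tested, 5 genes, rose and 0% fell. The risers were the cartilage chains Col9a1, Col11a2 and Col27a1. A further 17 collagens had an unadjusted edgeR p under 0.05, which made 20 in all, each higher with XYF, beside 3.84% of all genes tested that were higher and 1.58% that were lower at this p. All 3 IMQ+XYF libraries lay above every IMQ+H2O library in 20, beside 5.99% of all genes tested. The median log2 fold change was 0.95 for the collagens and 0.00058 for all genes. Under DESeq2, 16 collagens were DEGs and all were higher, beside 0.755% of the genes it tested. The 3 edgeR calls were lost when all 9 libraries were fitted together, where 0 collagens passed. They were also lost without any 1 of replicates 1 and 2 of IMQ+H2O and replicates 1, 2 and 3 of IMQ+XYF, and 2 stayed without replicate 3 of IMQ+H2O.

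In IMQ+XYF against VAS+H2O, 7 of 35 tested collagens fell and 1 rose, beside 3.05% and 4.58% of the 17954 genes tested. Those that fell were Col4a5, Col4a6, Col8a1, Col9a2, Col9a3, Col20a1 and Col25a1. The riser was again Col23a1. DESeq2 called 13, beside 7.93% of the genes it tested, and without replicate 2 of VAS+H2O, replicate 2 of IMQ+XYF or replicate 3 of IMQ+XYF the count was 5, 4 or 5. The comparisons share libraries, so the changes of one gene in them are not independent. The methods name a pair of mice as the source of the sheets but not whether this is per library, so pooling and separate animals cannot be told apart, and the p-values then measure only the spread between these libraries. In bulk RNA, fewer cells of a type and less RNA per cell cannot be told apart.

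**Figure D1:**
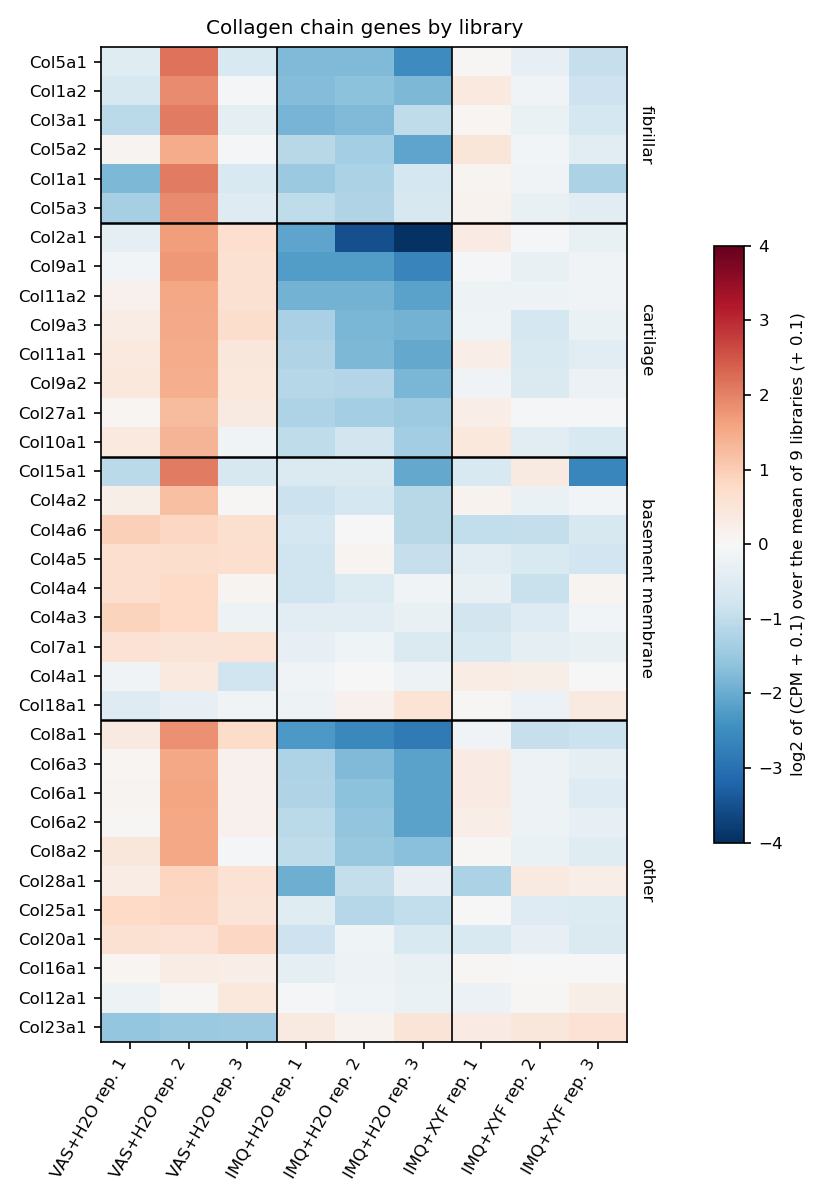
Level of each of the 34 collagens tested in IMQ+H2O against VAS+H2O (rows, grouped by class) in the 9 libraries (columns), coloured by the log2 ratio of its CPM, with 0.1 added, to its mean over the 9 libraries. Most cartilage, fibrillar and type VI and VIII chains are lowest in the 3 IMQ+H2O libraries and highest in replicate 2 of VAS+H2O. In all 6 imiquimod libraries, Col4a5, Col4a6, Col7a1 and Col20a1 are below every control and Col23a1 is above every control. Replicate 2 of IMQ+H2O is not below the mean of the 9 libraries in Col4a5 and Col4a6.

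All 8 cartilage chains fell in the model, with log2 fold changes of -4.11 to -1.77, beside 4.04% of all genes tested. All 8 had higher values in every IMQ+XYF library than in any IMQ+H2O library, beside 5.99% of all genes tested. Col9a1, a chain of the type IX collagen that coats cartilage fibrils, had 9.34, 33.6 and 15.5 CPM in VAS+H2O, 2.07, 2.05 and 1.53 CPM in IMQ+H2O and 9.47, 8.26 and 9.2 CPM in IMQ+XYF. The model libraries were the lowest, and the XYF libraries overlapped the controls at their lower end. Its change was -3.39 ± 0.50 (SE), edgeR adjusted p = 0.00938, in the model and 2.26 ± 0.17 (SE), edgeR adjusted p = 0.0193, with XYF. Col11a2, a chain of the type XI collagen that sets fibril width in cartilage, had 24.4, 64.4 and 33.4 CPM in VAS+H2O, 5.77, 5.8 and 4.84 CPM in IMQ+H2O and 18.9, 18.96 and 19.7 CPM in IMQ+XYF. The 3 XYF libraries of Col11a2 lay close together and below all controls, with a change from the model of 1.82 ± 0.12 (SE), edgeR adjusted p = 0.0119. Col27a1, which encodes the single chain of a thin cartilage fibril, had 63.8, 145 and 77.8 CPM in VAS+H2O, 26.01, 23.4 and 21.9 CPM in IMQ+H2O and 72.6, 57.1 and 58.8 CPM in IMQ+XYF. Its rise with XYF was 1.41 ± 0.12 (SE), edgeR adjusted p = 0.0376, and the XYF libraries overlapped those of the control. The falls of 7 cartilage chains in the model held in all 6 fits that leave out a library, and that of Col10a1 held only without replicate 3 of VAS+H2O, with an edgeR adjusted p of up to 0.0897. Left-out libraries kept the 3 rises with XYF at log2 fold changes of 2.12 to 2.33 for Col9a1, 1.73 to 1.86 for Col11a2 and 1.28 to 1.48 for Col27a1, while the edgeR adjusted p reached 0.185, 0.117 and 0.308. Those of Col9a1 and Col11a2 passed the test only without replicate 3 of IMQ+H2O, and that of Col27a1 in none of these fits.

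Promoter stretches are shown for these 3 genes because they were the collagens called in IMQ+XYF against the model. The other cartilage chains moved in the same directions. RefSeq promoter entries on GRCm38.p6 matched 34 of the 43 collagens, and each sequence holds the 250 bases before the RefSeq start on the plus strand, at chr1:24177360-24177609, chr17:34038888-34039137 and chr4:63215162-63215411. The RefSeq start of Col11a2 lies 299 bp upstream of the gene start in GENCODE M21, and that of Col27a1 lies 1408 bp downstream of it. Capitals mark matches on either strand to the TATA motif TATAAA, the CCAAT box (letters CCAAT), the GC box GGGCGG, and the cores ACAAAG and also ACAATG that SOX factors bind, and none of these motifs contains another.
Col9a1: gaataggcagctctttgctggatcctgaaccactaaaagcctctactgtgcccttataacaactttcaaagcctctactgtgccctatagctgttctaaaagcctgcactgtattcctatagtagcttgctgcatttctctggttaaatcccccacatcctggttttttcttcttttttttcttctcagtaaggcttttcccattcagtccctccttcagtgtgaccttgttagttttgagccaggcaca
Col11a2: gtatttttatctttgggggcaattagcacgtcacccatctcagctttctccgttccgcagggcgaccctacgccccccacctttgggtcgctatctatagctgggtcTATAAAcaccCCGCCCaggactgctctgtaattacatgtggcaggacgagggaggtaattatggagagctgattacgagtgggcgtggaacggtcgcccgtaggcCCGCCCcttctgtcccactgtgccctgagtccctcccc
Col27a1: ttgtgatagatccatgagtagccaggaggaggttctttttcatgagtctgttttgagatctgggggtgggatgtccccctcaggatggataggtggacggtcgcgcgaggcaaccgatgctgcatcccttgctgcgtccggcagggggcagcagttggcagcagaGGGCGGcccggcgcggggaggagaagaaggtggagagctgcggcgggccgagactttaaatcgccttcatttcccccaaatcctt
The Col9a1 stretch held none of the motifs, the Col11a2 stretch held 1 TATAAA and 2 GGGCGG, and that of Col27a1 held 1 GGGCGG. Of 32851 promoter windows of this length, 12.4% held TATAAA, 33.8% CCAAT, 32.7% GGGCGG, 16.5% ACAAAG and 10.7% ACAATG. Among the 37 windows of the 34 collagens, GGGCGG was found in 22 (59.5%), CCAAT in 12 (32.4%), TATAAA in 4, ACAAAG in 4 and ACAATG in 1.

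Col2a1 encodes the chain of type II collagen, the main fibril of cartilage, and had the largest fold change of the tested collagens in both the model and XYF comparisons. Its levels were 4.48, 18.9 and 9.23 CPM in VAS+H2O, 1.28, 0.416 and 0.278 CPM in IMQ+H2O and 7.37, 5.58 and 4.73 CPM in IMQ+XYF. The fall in the model was -4.11 ± 0.75 (SE), edgeR adjusted p = 0.0146. The value with XYF was 3.22 ± 0.55 (SE), edgeR adjusted p = 0.327, without overlap between the groups. Col9a2 and Col9a3 encode the partner chains of Col9a1. Col9a2 had 9.34, 19.2 and 9.43 CPM in VAS+H2O, 3.14, 3.09 and 1.92 CPM in IMQ+H2O and 6.34, 4.69 and 6.01 CPM in IMQ+XYF. Col9a3, which shares 234 exonic bases with Tcfl5 on the opposite strand, had 17.8, 42.3 and 23.6 CPM in VAS+H2O, 5.84, 4.05 and 3.89 CPM in IMQ+H2O and 12.96, 8.91 and 12.2 CPM in IMQ+XYF. In both, the XYF libraries lay above the model and below the controls. Both fell in the model and were still DEGs against the control after XYF, at -1.15 ± 0.32 (SE), edgeR adjusted p = 0.0352, and -1.29 ± 0.33 (SE), edgeR adjusted p = 0.0271, calls lost without replicate 2 of VAS+H2O or any XYF library. Without that control the value of Col9a2 was -0.72. Col11a1, the partner of Col11a2, had 23.05, 49.2 and 24.1 CPM in VAS+H2O, 7.7, 4.96 and 4.19 CPM in IMQ+H2O and 21.2, 11.6 and 13.1 CPM in IMQ+XYF. Its change in the model was -2.54 ± 0.38 (SE), edgeR adjusted p = 0.00991. Col10a1, the collagen of hypertrophic cartilage, had the smallest fall of the class, with -1.77 ± 0.43 (SE), edgeR adjusted p = 0.0293.

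**Figure D2:**
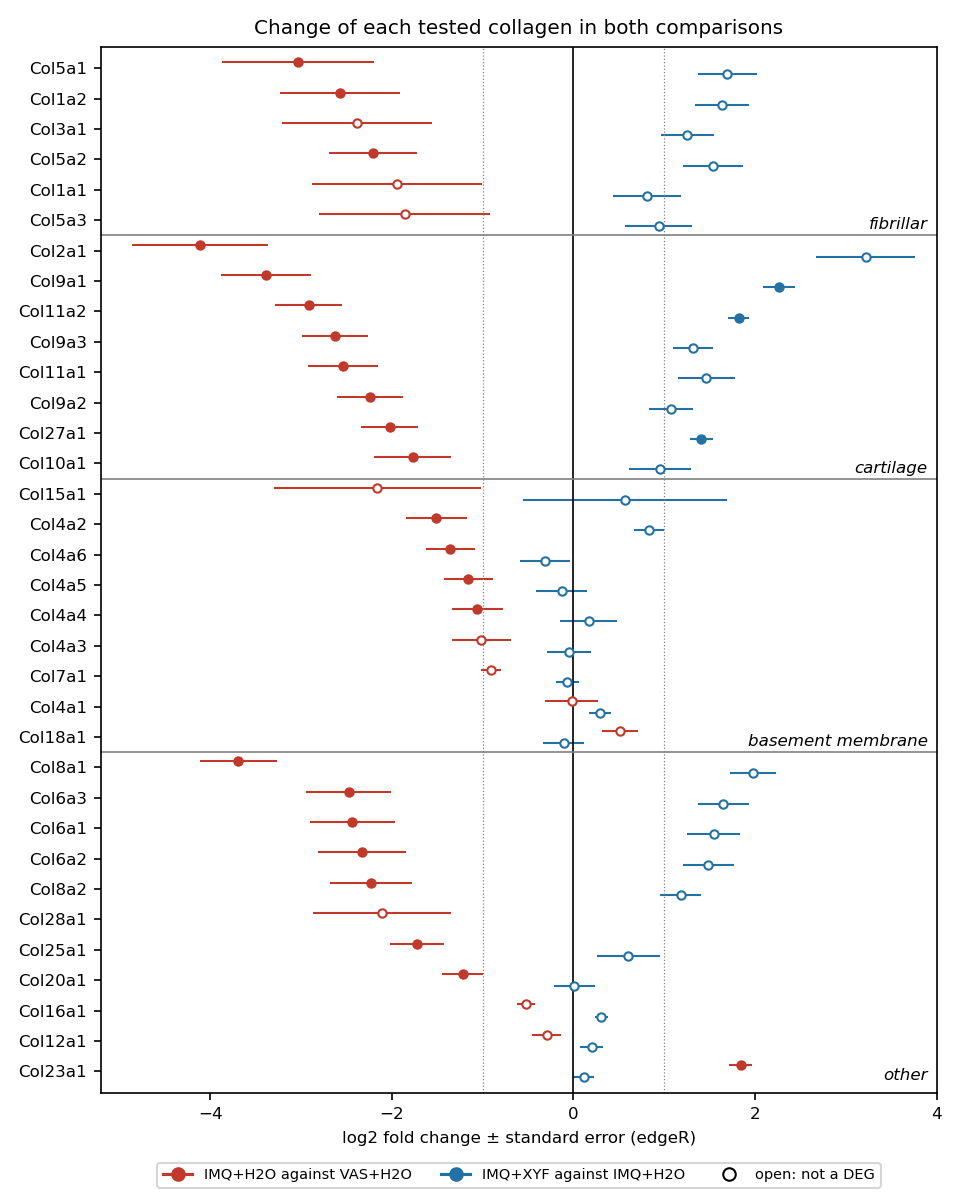
log2 fold change with its standard error (edgeR) for each tested collagen, in red for IMQ+H2O against VAS+H2O and in blue for IMQ+XYF against IMQ+H2O, with filled points for DEGs and dotted lines at a log2 fold change of -1 and 1. The blue points of the cartilage chains lie between 0.95 and 3.22, and those of the basement membrane chains between -0.31 and 0.83; both colours share the IMQ+H2O libraries.

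The fibrillar chains summed to 69.7, 399.7 and 89.1 CPM in VAS+H2O, 35.4, 35.6 and 37.3 CPM in IMQ+H2O and 129.8, 94.2 and 62.4 CPM in IMQ+XYF. The IMQ+H2O libraries were tight and lowest, and the controls were spread widely, since replicate 2 of VAS+H2O was far above the other controls. In the 6 tested fibrillar chains this library had a median of 6.79 times the mean of replicates 1 and 3, against 2.11 over all 34 collagens tested in the model. Col1a2, Col5a1 and Col5a2 fell in the model, beside 4.04% of all genes tested, and no fibrillar chain was a DEG by edgeR in either comparison with IMQ+XYF. In IMQ+XYF against the model, 5 of the 6 were higher at an unadjusted p under 0.05, beside 3.84% of all genes tested, and 4 were higher by DESeq2, beside 0.755% of the genes it tested. Against the control both counts were 0, and 41.3% of all genes tested had an unadjusted p under 0.05. Col1a2, a chain of type I collagen, had 22.2, 131 and 33.02 CPM in VAS+H2O, 10.5, 11.3 and 9.93 CPM in IMQ+H2O and 46.5, 31.99 and 19.6 CPM in IMQ+XYF. Its fall was -2.57 ± 0.66 (SE), edgeR adjusted p = 0.0356, and it lessened to -1.39 without replicate 2 of VAS+H2O. Against the model, the value with XYF was 1.64 ± 0.30 (SE), edgeR adjusted p = 0.352. Col1a1, the other chain of type I, had 3.72, 56.01 and 8.57 CPM in VAS+H2O, 4.63, 5.35 and 7.96 CPM in IMQ+H2O and 14.1, 11.7 and 5.41 CPM in IMQ+XYF. The model and control libraries of Col1a1 overlapped, at -1.95 ± 0.94 (SE), edgeR adjusted p = 0.178, and the value was -0.037 without replicate 2 of VAS+H2O. Col3a1, the chain of type III collagen that lies beside type I in dermis, had 11.8, 105 and 18.9 CPM in VAS+H2O, 6.8, 7.2 and 12.3 CPM in IMQ+H2O and 26.4, 20.9 and 15.2 CPM in IMQ+XYF, and shares 141 exonic bases with Gm47302 on the same strand. It did not pass, at -2.38 ± 0.83 (SE), edgeR adjusted p = 0.0821, and the value was -0.81 without replicate 2 of VAS+H2O. Col5a1, a chain of the type V collagen that starts fibrils, had 5.94, 38.4 and 5.45 CPM in VAS+H2O, 2.38, 2.42 and 1.39 CPM in IMQ+H2O and 8.68, 6.75 and 4.42 CPM in IMQ+XYF. Its fall was -3.04 ± 0.84 (SE), edgeR adjusted p = 0.0435, and it lessened to -1.47 without replicate 2 of VAS+H2O. Col5a1 shares 113 and 99 exonic bases with genes on the opposite strand. Col5a2, the partner of Col5a1 and a neighbour of Col3a1 on chromosome 1, fell by 2.21 on the log2 scale in the model and had a value of 1.54 with XYF. These 3 falls were lost without any 1 of the IMQ+H2O libraries, with edgeR adjusted p of up to 0.103 for Col1a2, 0.129 for Col5a1 and 0.0668 for Col5a2. Col5a3 had at most 2.97 CPM in any library, and Col24a1 had too few counts to be tested. Against the control, IMQ+XYF had log2 fold changes of -1.12, -0.92, -1.11 and -1.32 for Col1a1, Col1a2, Col3a1 and Col5a1, and these turned to 0.77, 0.25, 0.44 and 0.22 without replicate 2 of VAS+H2O.

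Markers of the cells that are known to make these chains were measured in the same libraries. The 12 dermal fibroblast markers, such as Pdgfrb and Ogn, summed to 108, 583 and 109 CPM in VAS+H2O, 51.5, 49.8 and 43.04 CPM in IMQ+H2O and 199, 145 and 69.2 CPM in IMQ+XYF. In the model, 4 of their 10 tested genes fell, beside 4.04% of all genes tested. With XYF 0 were DEGs by edgeR and 9 were higher at an unadjusted p under 0.05, beside 3.84% of all genes tested. DESeq2 called 4 of them higher with XYF, beside 0.755% of the genes it tested, and their median log2 fold change was 1.28. Per library, the fibrillar chains amounted to 0.645 to 0.901 times the fibroblast marker sum, a span of 1.40-fold over all 9 libraries. The 10 chondrocyte markers summed to 621, 969.9 and 432 CPM in VAS+H2O, 283, 173 and 129.5 CPM in IMQ+H2O and 643, 348 and 337 CPM in IMQ+XYF. Of the 8 that could be tested, 7 fell in the model, beside the same 4.04% of all genes. With XYF 0 passed by edgeR, 7 were higher at an unadjusted p under 0.05, beside 3.84%, and 5 were higher by DESeq2, beside 0.755%. Their median with XYF was 1.27. Of this list, Matn1, a cartilage matrix gene, had 0 counts throughout. The cartilage chains amounted to 0.189 to 0.455 times the chondrocyte sum, a span of 2.40-fold, and the other chains to 1.51 to 4.56 times the fibroblast sum, a span of 3.03-fold. A few genes made up most of the chondrocyte sum, with means in VAS+H2O of 304 CPM for Cytl1, 181 for Acan and 138 for Chad, of 674 CPM. In the fibroblast sum, Dcn had 291 of the 583 CPM in replicate 2 of VAS+H2O. The 4 skeletal muscle markers summed to 2.64, 99.8 and 3.41 CPM in VAS+H2O, 0.725, 2.83 and 2.85 CPM in IMQ+H2O and 11.3, 26.05 and 1.42 CPM in IMQ+XYF, and replicate 2 of VAS+H2O was highest here too. Keratinocyte markers, which define the labelled tissue, summed to between 45280.0 and 68389 CPM. The 5 mural cell markers summed to 55.2, 93.2 and 48.5 CPM in VAS+H2O, 31.98, 32.05 and 20.99 CPM in IMQ+H2O and 43.1, 39.1 and 38.03 CPM in IMQ+XYF, without overlap between the groups. Most of this sum was Cspg4, with 53.4, 82.1 and 46.8 CPM in VAS+H2O, 28.7, 26.7 and 18.3 CPM in IMQ+H2O and 38.2, 32.9 and 34.6 CPM in IMQ+XYF. The model and control libraries of Acta2, Myh11, Tagln and Rgs5 overlapped. Of the 4 mural cell markers tested, only Cspg4, a proteoglycan of pericytes, fell in the model, at -1.32 ± 0.26 (SE), edgeR adjusted p = 0.0175. With XYF 0 of the 4 were DEGs by edgeR or DESeq2 and 1 was higher at an unadjusted p under 0.05, beside 3.84% of all genes tested. Endothelial, Schwann cell and adipocyte sums ranged from 4.44 to 12.7, 41.8 to 68.3 and 0.573 to 4.02 CPM. With XYF, DESeq2 called 1 of 3 muscle markers higher, beside 0.755% of the genes it tested, and edgeR called 0 of 3. The part of fibroblast, cartilage, mural cell or muscle RNA in the collagen changes was not tested.

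**Figure D3:**
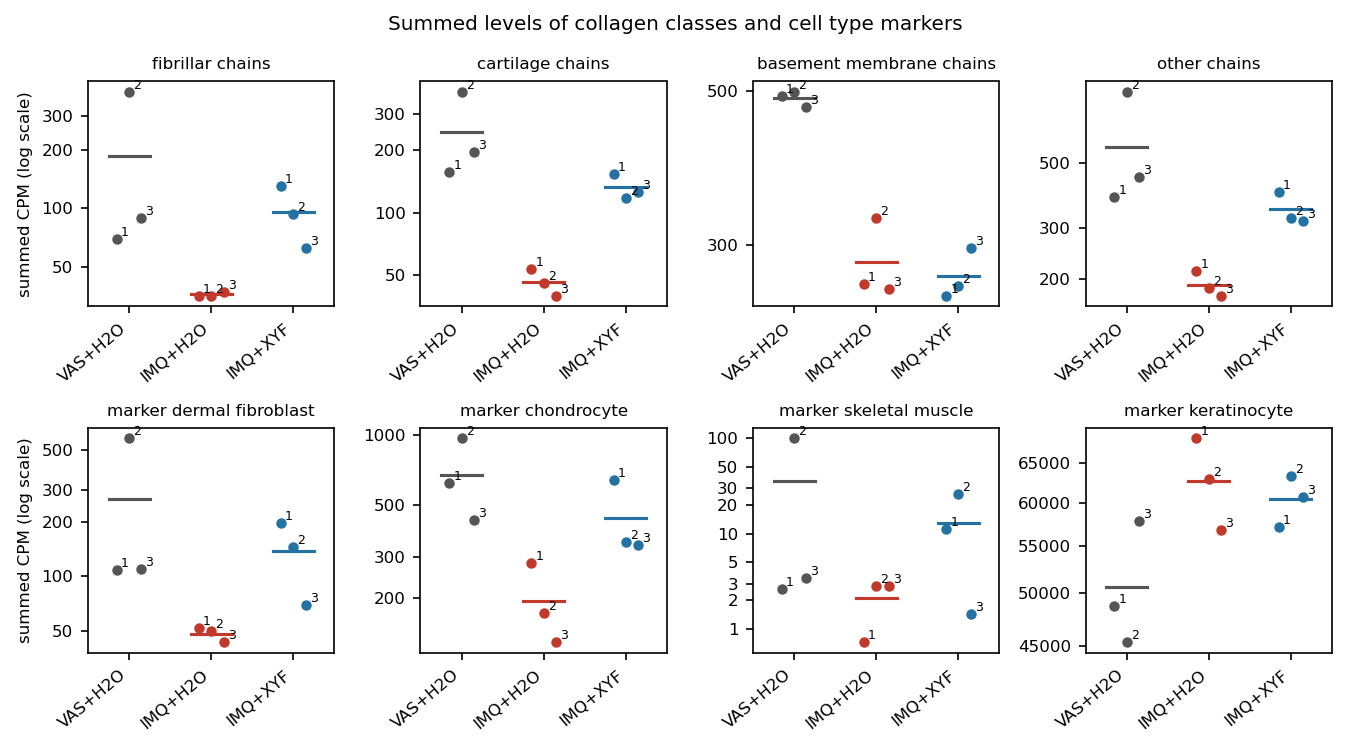
Summed CPM (log scale) of the 4 collagen classes (top) and of 4 lists of cell type markers (bottom) in each library, with the replicate number beside each point and a bar at the mean of the 3 libraries of a group. The means of the fibrillar and cartilage chains and of the fibroblast and chondrocyte markers are lowest in IMQ+H2O, and the basement membrane chains, at 474 to 498 CPM in the 3 controls, are lower in all 6 imiquimod libraries.

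The chains of the basement membrane zone had another pattern. They summed to 492, 498 and 474 CPM in VAS+H2O, 264, 328 and 259.6 CPM in IMQ+H2O and 254, 262 and 298 CPM in IMQ+XYF. In this sum the controls were tight, replicate 2 of VAS+H2O did not stand out, and the XYF libraries overlapped those of the model. Most of the sum was Col7a1, with a mean of 294 of 488 CPM in VAS+H2O. Replicate 2 was the highest control in 5 of the 9 chains. It had 2.12 times the mean of replicates 1 and 3 in Col4a2 and 1.79 times in Col4a1. In the model 4 of the 9 fell, namely Col4a2, Col4a4, Col4a5 and Col4a6, beside 4.04% of all genes tested. With XYF 0 of 9 were DEGs by edgeR and 0 of the 8 with a DESeq2 adjusted p were DEGs by DESeq2. Beside these counts stand 0.0281% of all genes tested by edgeR that rose and 0.755% of those tested by DESeq2. Only 1, Col4a2, was higher at an unadjusted edgeR p under 0.05, beside 3.84% of all genes tested. Col7a1, the chain of the anchoring fibril, had the highest level per length of all collagens, 19.5 CPM per kb of exon on average over the 9 libraries. It had 299, 287 and 296 CPM in VAS+H2O, 160.1, 178 and 136 CPM in IMQ+H2O and 132, 155 and 164 CPM in IMQ+XYF, and shares 36 exonic bases with Mir711. The 6 imiquimod libraries lay below the 3 controls. The change passed the adjusted p but not the fold threshold in both IMQ+H2O, at -0.91 ± 0.11 (SE), edgeR adjusted p = 0.00668, and IMQ+XYF, at -0.97 ± 0.091 (SE), edgeR adjusted p = 0.00113. Between the model and XYF it was -0.066 ± 0.12 (SE), edgeR adjusted p = 1.

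Col4a5 and Col4a6 lie head to head on the X chromosome and encode chains of the type IV network of skin. Col4a5 had 38.9, 39.97 and 38.4 CPM in VAS+H2O, 14.1, 26.3 and 12.7 CPM in IMQ+H2O and 18.1, 16 and 14.2 CPM in IMQ+XYF. Col4a6 had 87.5, 80.4 and 71.9 CPM in VAS+H2O, 27.7, 45.9 and 21.1 CPM in IMQ+H2O and 23.2, 23.7 and 29.1 CPM in IMQ+XYF. In both, replicate 2 was the highest of the model, and the XYF libraries lay within the range of the model. The falls in the model were -1.16 ± 0.27 (SE), edgeR adjusted p = 0.0273, for Col4a5 and -1.36 ± 0.27 (SE), edgeR adjusted p = 0.0182, for Col4a6. The model calls were lost without replicate 1 of IMQ+H2O, replicate 1 of VAS+H2O or replicate 2 of VAS+H2O in both genes, and for Col4a5 also without replicate 3 of either group, with edgeR adjusted p of up to 0.0858 for Col4a5 and 0.0617 for Col4a6. The changes in IMQ+XYF against the control, which held without any library, were -1.28 ± 0.10 (SE), edgeR adjusted p = 0.000853, and -1.66 ± 0.12 (SE), edgeR adjusted p = 0.000636. The XYF values against the model were -0.13 and -0.31, and they turned to 0.28 and 0.061 without replicate 2 of IMQ+H2O.

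Col4a1 and Col4a2, which form the common type IV trimer of most basement membranes, lie head to head on chromosome 8, and Col4a2 fell in the model while Col4a1 did not pass the test. Col4a1 had 9.98, 14.6 and 6.39 CPM in VAS+H2O, 10.1, 11.3 and 9.6 CPM in IMQ+H2O and 13.5, 13.1 and 11.2 CPM in IMQ+XYF, and all 3 groups overlapped. Col4a2 had 13, 25.99 and 11.5 CPM in VAS+H2O, 6.11, 6.76 and 5.07 CPM in IMQ+H2O and 12.2, 9.28 and 10.2 CPM in IMQ+XYF. Every control of Col4a2 was above every model library, and the XYF libraries were above every model library and below the highest control. Col4a2 fell in the model, at -1.51 ± 0.33 (SE), edgeR adjusted p = 0.0237, where Col4a1 had -0.017 ± 0.29 (SE), edgeR adjusted p = 0.973. The call of Col4a2 was lost without any 1 of the IMQ+H2O libraries, with an edgeR adjusted p of up to 0.0744. The value of Col4a2 in the model spanned -1.69 to -1.04 with a library left out. With XYF the values were 0.83 ± 0.17 (SE), edgeR adjusted p = 0.4, for Col4a2 and 0.29 ± 0.13 (SE), edgeR adjusted p = 0.93, for Col4a1. The ratio of Col4a1 to Col4a2 in CPM was 0.767, 0.562 and 0.557 in VAS+H2O, 1.66, 1.67 and 1.89 in IMQ+H2O and 1.11, 1.41 and 1.09 in IMQ+XYF, without overlap between any groups. The exact two-sided permutation p was 0.1 in each comparison, the smallest that 3 against 3 allows, and 0.3 after Benjamini-Hochberg adjustment over 27 tests of 9 chain ratios. The first exons overlap by 22 bases, at chr8:11312805-11312826 on GRCm38.p6, in GENCODE M21, and whether the counting used strand is not given. This stretch, printed on the plus strand with a GGGCGG match in capitals, is shown because reads from it could go to either gene.
Col4a1 and Col4a2 overlap: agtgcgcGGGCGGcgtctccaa

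Col4a3 and Col4a4, chains of the type IV network of kidney and a few other basement membranes, also lie head to head, on chromosome 1. Col4a3 had 4.48, 4.15 and 2.04 CPM in VAS+H2O, 1.73, 1.72 and 1.9 CPM in IMQ+H2O and 1.37, 1.6 and 2.19 CPM in IMQ+XYF, and 563 of its exonic bases overlap C430014B12Rik on the opposite strand. Col4a4 had 5.03, 5.43 and 3.33 CPM in VAS+H2O, 1.73, 2.11 and 2.82 CPM in IMQ+H2O and 2.5, 1.63 and 3.33 CPM in IMQ+XYF. Model libraries lay below all controls in both, and only Col4a4 was a DEG, at -1.06 ± 0.28 (SE), edgeR adjusted p = 0.039, against -1.01 ± 0.32 (SE), edgeR adjusted p = 0.0645, for Col4a3, a difference between the genes that was not tested. The call of Col4a4 was lost without replicate 1 or 2 of either group, with an edgeR adjusted p of up to 0.115. Col18a1, which encodes a proteoglycan of basement membranes and the source of endostatin, had 33.8, 38.6 and 44.2 CPM in VAS+H2O, 42.03, 55.4 and 70.8 CPM in IMQ+H2O and 50.9, 41.5 and 63.2 CPM in IMQ+XYF. It was not a DEG, with 0.52 ± 0.20 (SE), edgeR adjusted p = 0.106. Col15a1, a related chain, ranged from 0 to 2.46 CPM. Set against the keratinocyte marker sum, the 9 chains were 0.0082 to 0.011 of it in VAS+H2O, 0.00386 to 0.00521 in IMQ+H2O and 0.00414 to 0.0049 in IMQ+XYF. Some of these markers themselves changed, as Krt15 fell and Krt1 and Ivl rose in the model.

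Among the other chains, the tested chains of types VI and VIII all fell in the model, beside 4.04% of all genes tested. With XYF 0 of these 5 were DEGs by edgeR, while all 5 were higher at an unadjusted p under 0.05, beside 3.84% of all genes tested. Col6a1, Col6a2, Col6a3 and Col8a1 were higher by DESeq2, which called 0.755% of the genes it tested. Col8a1, the chain of a short network-forming collagen, had 98.4, 274 and 127 CPM in VAS+H2O, 15.7, 12.9 and 10.7 CPM in IMQ+H2O and 69.9, 40.6 and 42.7 CPM in IMQ+XYF. It fell in the model, at -3.69 ± 0.42 (SE), edgeR adjusted p = 0.00629, had 1.97 ± 0.25 (SE), edgeR adjusted p = 0.153, with XYF, and was still lower than the control after XYF, at -1.70 ± 0.42 (SE), edgeR adjusted p = 0.0239. The model fall held without any library, and the last call was lost without replicate 2 or 3 of IMQ+XYF. Col8a2, its partner, fell by 2.23 on the log2 scale in the model. Col6a1, Col6a2 and Col6a3 form the trimer of the beaded filament. Col6a1 had 63.3, 177 and 66.3 CPM in VAS+H2O, 25.5, 18.7 and 13.3 CPM in IMQ+H2O and 73.5, 51.6 and 41.4 CPM in IMQ+XYF. Col6a2, its neighbour on chromosome 10, had 59.2, 169 and 64.8 CPM in VAS+H2O, 27.01, 19.4 and 12.96 CPM in IMQ+H2O and 68.8, 49.6 and 46.2 CPM in IMQ+XYF. Col6a3 had 33.2, 93.4 and 35.6 CPM in VAS+H2O, 13.4, 9.12 and 7.15 CPM in IMQ+H2O and 40.1, 27.7 and 24.6 CPM in IMQ+XYF. Replicate 2 of VAS+H2O was the highest library of each, and the XYF libraries overlapped the controls. Against the control, the values of IMQ+XYF were -0.88, -0.83 and -0.81, and none was a DEG by edgeR. With a library left out they spanned -1.13 to -0.22 for Col6a1, -1.09 to -0.17 for Col6a2 and -1.06 to -0.16 for Col6a3. All 3 fell in the model, at -2.44 ± 0.47 (SE), edgeR adjusted p = 0.0165, -2.33 ± 0.48 (SE), edgeR adjusted p = 0.0193, and -2.47 ± 0.47 (SE), edgeR adjusted p = 0.0158, and had values of 1.54, 1.48 and 1.65 with XYF, without overlap with the model. The falls of Col6a1 and Col6a3 were lost without replicate 3 of IMQ+H2O, and those of Col6a2 and Col8a2 without replicate 2 or 3 of IMQ+H2O, with edgeR adjusted p of up to 0.0603. The ratio of Col6a1 to Col6a2 was 0.895 to 1.07 over the 9 libraries and that of Col6a3 to Col6a1 was 0.488 to 0.596, spans of 1.19-fold and 1.22-fold. Each IMQ+XYF library had a higher Col6a3 to Col6a1 ratio than all others, by a narrow margin, from 0.537 up in IMQ+XYF. Against either group its exact permutation p was 0.1, and 0.3 after adjustment. Col6a4 had 0 counts in every library, and Col6a5 and Col6a6 had at most 0.143 and 0.516 CPM and were not tested.

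**Figure D4:**
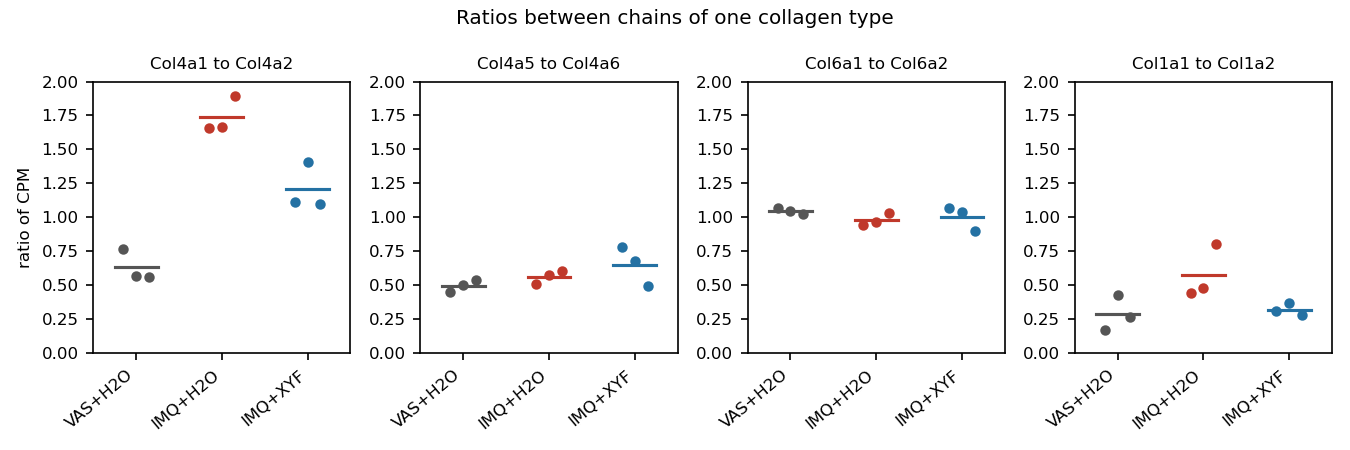
Ratio of CPM between chains of one collagen type in each library (points) with the mean of the 3 libraries of a group (bars). The ratio of Col4a1 to Col4a2 goes from 0.557 to 0.767 in VAS+H2O to 1.66 to 1.89 in IMQ+H2O, while that of Col6a1 to Col6a2 stays between 0.895 and 1.07 in all 9 libraries.

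Among the other 7 chain ratios, that of Col1a1 to Col1a2 was 0.167, 0.429 and 0.26 in VAS+H2O, 0.441, 0.476 and 0.802 in IMQ+H2O and 0.304, 0.367 and 0.277 in IMQ+XYF, with each model library above all others. The ratio of Col9a1 to Col9a3 was 0.524, 0.794 and 0.657 in VAS+H2O, 0.355, 0.506 and 0.393 in IMQ+H2O and 0.731, 0.927 and 0.753 in IMQ+XYF, and each model library was below all others. Each had an exact permutation p of 0.1 for the model against either group and an adjusted p of 0.3. The ratio of Col4a5 to Col4a6 spanned 0.444 to 0.779 and its groups overlapped.

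Col23a1, a transmembrane collagen, was the only collagen called higher than the control in either imiquimod group and is described after its values were seen. It had 10.7, 11.3 and 11.4 CPM in VAS+H2O, 41.1, 34.9 and 45.3 CPM in IMQ+H2O and 40.1, 43.4 and 47 CPM in IMQ+XYF. The 6 imiquimod libraries were all above the 3 controls, and the XYF and model libraries overlapped. The rise was 1.84 ± 0.12 (SE), edgeR adjusted p = 0.00194, in the model and 1.96 ± 0.092 (SE), edgeR adjusted p = 0.000145, in IMQ+XYF, and between these groups the value was 0.11 ± 0.12 (SE), edgeR adjusted p = 1. Col23a1 and Col7a1 had tight controls and changes of opposite sign, and their 250 bases before the RefSeq start, at chr11:51289670-51289919 and chr9:108953336-108953585 on the plus strand of GRCm38.p6, are shown with the same motifs in capitals.
Col23a1: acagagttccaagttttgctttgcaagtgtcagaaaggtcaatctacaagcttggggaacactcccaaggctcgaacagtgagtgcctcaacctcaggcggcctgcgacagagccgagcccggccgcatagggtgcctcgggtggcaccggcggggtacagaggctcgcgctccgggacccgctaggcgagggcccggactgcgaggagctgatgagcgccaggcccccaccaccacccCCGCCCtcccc
Col7a1: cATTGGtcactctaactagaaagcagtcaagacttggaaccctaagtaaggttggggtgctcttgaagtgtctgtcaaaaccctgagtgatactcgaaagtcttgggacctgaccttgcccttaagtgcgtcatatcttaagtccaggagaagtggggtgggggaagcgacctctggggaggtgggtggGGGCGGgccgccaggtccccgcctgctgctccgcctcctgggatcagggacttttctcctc
The Col23a1 stretch held 1 GGGCGG, and that of Col7a1 held 1 GGGCGG and 1 CCAAT.

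Of the remaining chains, also named after their values were seen, Col20a1, of a group that binds to fibril surfaces, and Col25a1, a transmembrane chain, fell in the model by 1.22 and 1.73 on the log2 scale. They were also DEGs in IMQ+XYF against the control, where the call of Col25a1 was lost without replicate 1 or 2 of VAS+H2O or replicate 2 or 3 of IMQ+XYF. Col20a1 had 6.37 ± 0.64 CPM in VAS+H2O, 2.75 ± 0.703 CPM in IMQ+H2O and 2.77 ± 0.298 CPM in IMQ+XYF (SD, n = 3). Col16a1, a fibril-associated chain, passed the adjusted p in the model below the fold threshold, at -0.52 ± 0.10 (SE), edgeR adjusted p = 0.0158. Col12a1, of the same group, was not a DEG in any comparison, with values of -0.30, 0.20 and -0.086. Col14a1 and Col28a1 had at most 0.849 and 0.607 CPM, and Col14a1 was tested only in IMQ+XYF against the control and Col28a1 only in the comparisons with the control. Col13a1, Col19a1 and Col22a1 were not tested, and Col26a1 had 0 counts in every library, below a floor of 3 counts that equals 0.0471 to 0.104 CPM.

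Genes that act on collagen chains after their translation, and the receptors that bind collagen, were taken as lists. Their counts in the model stand beside 4.04% of all genes tested that fell and 3.64% that rose. Of 17 tested genes for chain synthesis and folding, 3 fell in the model, namely Plod2, a lysyl hydroxylase, P3h1, a prolyl hydroxylase, and the collagen chaperone Serpinh1, at -1.93, -1.23 and -1.03. In the same list 1 of the 17, P4hb, a disulfide isomerase that is also a subunit of prolyl 4-hydroxylase, rose by 1.10. Of 12 tested genes for propeptide cleavage and cross-linking, 8 fell and 0 rose in the model, among them the lysyl oxidase Loxl4 at -2.26 ± 0.35 (SE), edgeR adjusted p = 0.0101, the propeptidase Adamts14 at -1.73 ± 0.26 (SE), edgeR adjusted p = 0.01, Loxl3 at -2.63 ± 0.49 (SE), edgeR adjusted p = 0.0156, and the protease Tll1 at -1.26 ± 0.24 (SE), edgeR adjusted p = 0.0158. Of 9 tested collagen receptors, 4 fell, among them the integrin chains Itga1 and Itga10 and the endocytic receptor Mrc2, and the kinase receptor Ddr2 rose by 1.13. The median log2 fold changes of these lists in the model were -0.30, -1.82 and -0.49. With XYF 0 genes of the 3 lists were DEGs by edgeR. At an unadjusted p under 0.05, 2, 6 and 2 of 16, 12 and 7 tested were higher, beside 3.84% of all genes, and 1, 0 and 1 were lower, beside 1.58%. DESeq2 called 0, 2 and 2 higher, beside 0.755% of the genes it tested, and the medians were 0.042, 0.96 and 0.059.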

How the data were processed

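RNA of epidermal ear sheets was measured in 9 libraries, grouped by their deposited titles. Per the labels, strand-specific TruSeq libraries were made, and the submitters' processing notes name FastQC, STAR 2.5, Cuffnorm and DESeq 1.22.1 with the genome GRCm38. The study's methods name the annotation of Ensembl release 90. The authors deposited raw counts per gene, and the tool and strand setting of the counting are not given in the sources used here. Total counts were 30298275 to 64771160 per library. A floor of 3 counts covers counting error only, because the reads carry no molecular identifiers.

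Pairs of groups were fitted on their own 6 libraries with edgeR 4.0.16 in R 4.3.3 (TMM, filterByExpr, quasi-likelihood test), with Benjamini-Hochberg adjustment over all genes tested and standard errors taken from the test statistic, after tests on simulated data. DESeq2 1.42.0, other scaling, other filters, a joint fit, a replicate block and left-out libraries were the alternatives. Levels are CPM with TMM factors from the 18492 genes that pass the filter over 9 libraries. Exon lengths and positions came from GENCODE M21 and promoters from RefSeq. The chi-square per gene between libraries of a group was 23.8 to 75.0, above that of counting error alone.

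The collagens, lists and markers were chosen with earlier results of these data known. Values per library are given for collagens called in IMQ+XYF against IMQ+H2O, for the 2 called collagens with the largest fold change in the model and the 2 with the highest CPM per kb in each class, and for the partner chains of their trimers. Called genes of other lists are named up to 4 a list, by adjusted p.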

Additional observations from a re-analysis of the deposited data

How the results depend on the processing

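RLE scaling, either change of the low-count filter and the adjusted p alone left the 3 collagen counts within 1.5 times. In the model against the control, the count of 23 ranged from 13 to 23 and the median log2 fold change from -2.38 to -1.37 with a library left out. The value of Col4a1 there was at 0.019 with no filter, 0.00011 with at least 10 counts in every library and 0.059 with the replicate block, and spanned -0.23 to 0.33 with a library left out. In IMQ+XYF against the model, the count of 3 became 16 by DESeq2, 0 with all 9 libraries in 1 fit, 0 with the replicate block and 0 to 2 with a library left out, and the median spanned 0.70 to 1.13. Left-out libraries moved the values there from -0.33 to 0.28 for Col4a5, -0.54 to 0.061 for Col4a6, -0.17 to 0.029 for Col7a1, -0.28 to 0.089 for Col18a1, -0.26 to 0.091 for Col4a3 and -0.094 to 0.39 for Col4a4. In IMQ+XYF against the control, the count of 8 became 13 by DESeq2, 5 with the replicate block and 4 to 10 with a library left out, and the median spanned -1.14 to -0.21. Its values spanned -1.62 to 0.77 for Col1a1, -1.32 to 0.25 for Col1a2, -1.57 to 0.44 for Col3a1 and -1.72 to 0.22 for Col5a1, and the positive end was without replicate 2 of VAS+H2O. The cause was not tested.

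For libraries with the same replicate number, the correlation of their deviations from the group means was -0.13 to 0.11. Not every library correlated best with its own number. With 3 libraries a group, this cannot show whether libraries of the same number shared a batch, and the main fits used no pairing. The replicate block gave 20, 0 and 5 DEGs in the 3 comparisons. With 3 libraries a group, chain ratios could not pass an exact test at 0.05, and collagens that did not pass filterByExpr in a comparison were not tested there.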
